A study of Homo sapiens with 20 samples.

Results

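The 1022 peaks described here are HIF1A binding sites that were called close to gene starts in hypoxic H460 cells. They shared no base with a hypoxia peak of the 3 other cell lines of the series. They were chosen from the 3877 peaks of the H460 hypoxia list by 2 criteria. First, all hypoxia peaks of the 4 lines were joined wherever they shared at least 1 bp, which gave 19625 regions, and a region was kept where H460 was the only line in it. Second, the centre of the peak had to lie within 2500 bp of the start of a protein-coding or lncRNA gene. These peaks made up 26.4% of the H460 hypoxia list. Their number and the absence of other lines from their regions follow from the choice and are not findings. A peak list holds only what passed the cut-offs of its line, so that absence from another list is the absence of a call and not a measurement of zero binding.

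The series measured HIF1A by ChIP-seq in HCT116 and RKO cells, which are established colon cancer lines, and in A549 and H460 cells, which are established lung cancer lines. The cells had spent 24 h either at normal oxygen (normoxia) or at 1% oxygen (hypoxia). Of the 20 samples, 16 were ChIP libraries in duplicate (replicates 1 and 2 of every line and oxygen level), and the remaining 4 were inputs, 1 per line. None of the groups carried a gene deletion or a drug treatment. The replicates were merged before peaks were called, so that every peak has 1 value per line and condition, and no error between replicates and no test over samples could be given. Library totals ran from 41.2 to 81.5 M tags (1 M is 1000000), and the H460 libraries held 49.5 M tags in hypoxia and 53.3 M in normoxia. Peak lists hold no expression values, so the identity of the cell lines was not checked against markers. The labels disagree over the inputs, because the description of the RKO input names A549 cells and that of the A549 input names RKO cells, and the source field gives HCT116 for all 4 inputs.

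HIF1A is the oxygen-regulated subunit of the hypoxia-inducible factor. In well-oxygenated cells it is hydroxylated on prolines by the EGLN enzymes and degraded, and in hypoxia it accumulates, pairs with ARNT and binds a short DNA element, the hypoxia response element or HRE. The HRE core is ACGTG or GCGTG, which reads CACGT or CACGC on the opposite strand. HIF1A is best known as an activator of glycolysis, glucose uptake, angiogenic signalling and pH control, and it recruits the coactivators CREBBP and EP300 through its C-terminal activation domain.

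The whole sequences of the 3 strongest peaks that overlap no UTR are shown first, since they have the highest signals among the 1022 peaks. They lie in an intron of CD70, upstream of ITGA2B and in a coding exon of FAHD1 upstream of HAGH. Sequences are given 5′ to 3′ on the plus strand of GRCh37, and capitals mark every HRE core on either strand.
CD70, chr19:6601738-6601884: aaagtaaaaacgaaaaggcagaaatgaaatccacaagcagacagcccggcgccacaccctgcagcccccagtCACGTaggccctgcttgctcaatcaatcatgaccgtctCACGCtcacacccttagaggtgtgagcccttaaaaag
ITGA2B, chr17:42467694-42467840: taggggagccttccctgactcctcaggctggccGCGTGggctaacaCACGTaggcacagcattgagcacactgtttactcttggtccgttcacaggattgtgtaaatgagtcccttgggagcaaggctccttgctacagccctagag
HAGH, chr16:1877441-1877587: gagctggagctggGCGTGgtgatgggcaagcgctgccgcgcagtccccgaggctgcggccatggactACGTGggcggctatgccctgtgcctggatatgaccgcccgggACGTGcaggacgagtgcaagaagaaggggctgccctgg
Each of these peaks is 147 bp long, and they hold 2, 2 and 3 HRE cores. The 3 cores at HAGH are spread along the peak, while both ITGA2B cores lie close together left of its middle.

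A 30-bp window around the core nearest to the peak centre is given for the strongest peaks, to show how the core and its neighbouring letters vary between sites. Of the 12 peaks looked at, 11 held a core and ENSG00000262413 held none. Strand and capitals are as above.
CD70, chr19:6601798-6601827: gcagcccccagtCACGTaggccctgcttgc
ITGA2B, chr17:42467728-42467757: cgtgggctaacaCACGTaggcacagcattg
HAGH, chr16:1877496-1877525: cggccatggactACGTGggcggctatgccc
PPP4R3B-DT, chr2:55844827-55844856: cctccgcttctgCACGCgcttcccaggccg
ENSG00000289895, chr20:45988972-45989001: caatgcttggagACGTGtgggttgtcacag
IFI16, chr1:158968865-158968894: tgttGCGTGcctGCGTGCGTGcgcgcgcac
ENSG00000291163, chr15:23096955-23096984: tagctGCGTGgtACGTGactggaggcatat
PYGL, chr14:51411519-51411548: tgtgtagggaagCACGTcgttggcagactg
ENSG00000288774, chr5:147254025-147254054: atctgggcttatACGTGcaagtcacagggg
GPT2, chr16:46918070-46918099: cccagccccggcCACGTtcggacgaacgct
CITED2, chr6:139696911-139696940: tctggaggtgggCACGTagctgCACGTccc
The letter before the core varied between these sites, and IFI16, ENSG00000291163 and CITED2 had more than 1 core inside the 30 bp.

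The signal of a peak is its normalized tag count, the tags in the peak per 10 M tags of the library. Among the 1022 peaks the signal ran from 2.83 to 47.9, with a median of 5.46 and a middle range of 4.25 to 7.89. In unscaled tags this is 14 to 237, with a median of 27. The exact 95% Poisson interval is 7.65 to 23.5 tags for the weakest peak, 17.8 to 39.3 for the median one and 208 to 269 for the strongest, and these intervals cover counting error only. The peaks near gene starts called in H460 alone were thus mostly weak. Of the 100 strongest H460 hypoxia peaks 1 was among them, of the strongest 500 there were 37, and of the strongest 1000 there were 113.

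H460 peaks near gene starts that were called in all 4 lines had a median signal of 26.8 (172 peaks), and those called in 2 or 3 lines a median of 10.1 (716 peaks). H460-only peaks far from gene starts had a median of 5.26 (1502 peaks), close to that of the peaks near gene starts. The order of the classes is a description, since the classes were defined by calls and a call depends on the signal.

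**Figure D1:**
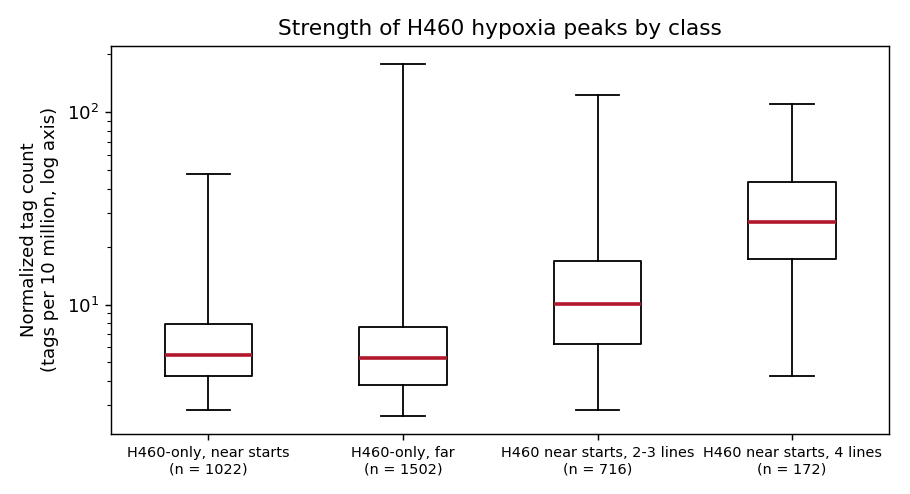
Normalized tag count, in tags per 10 M on a log axis, of H460 hypoxia peaks in 4 classes; boxes span the middle range, red lines the median, and whiskers run to the lowest and highest peak. The 1022 H460-only peaks near gene starts have a median of 5.46 and the 172 peaks called in all 4 lines one of 26.8.

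The strongest H460-only peaks lay near genes of several unrelated functions. The peak with the highest signal, 47.9, was in an intron of CD70, 2303 bp downstream of its start. CD70 encodes a ligand of the tumour necrosis factor family that binds the receptor CD27. Next came a peak with a signal of 42.5, 750 bp upstream of ITGA2B, which encodes the platelet integrin subunit alpha-IIb. A signal of 42.3 was measured 356 bp upstream of HAGH, a glyoxalase that hydrolyses lactoylglutathione, where FAHD1 starts on the other side. For these 3 genes no other line had a peak at the start, and the nearest such peak was 24885 bp away for CD70, 50778 bp for ITGA2B and 3456 bp for HAGH. A gene record begins at its outermost transcript, and at CD70 the other transcript starts were 10650 and 10661 bp from the peak. At ITGA2B 1 of 9 annotated transcript starts was within 2500 bp, and at HAGH 9 of 12 were. Over all 1022 peaks, most transcript starts of the nearest gene were farther than 2500 bp away for 203 (19.9%).

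Several further genes, most of them of metabolism, were in this group. PYGL, the liver form of glycogen phosphorylase, had a peak of 30.5 at 359 bp upstream of its start. GPT2, the mitochondrial alanine aminotransferase, had a peak of 25.5 at 259 bp upstream, and PTGR1, a reductase of prostaglandins and other lipid enones, one of 24.5 at 25 bp downstream. IFI16, a sensor of foreign DNA, had a peak of 35.8 at 879 bp upstream. All 4 held at least 1 HRE core, and no other line had a peak at their starts. At IFI16 1 of 10 transcript starts was within 2500 bp of the peak, at PYGL 3 of 6, at GPT2 3 of 5 and at PTGR1 all 8.

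Others stood at genes of trafficking and of RNA or kinase biology. A signal of 23.7 was found 251 bp upstream of SEC24A, which shares its start region with SAR1B, and both genes encode parts of the COPII vesicle coat. DDX41, an RNA helicase, had a peak of 23.3 in a coding exon, and LDLRAD1, a receptor-related membrane protein gene, one of 23.7 at 2277 bp upstream. At TAOK1, a kinase of the STE20 group, the peak of 22.8 lay 73 bp upstream of the start and held no HRE core in the 200 bp around its centre. The peak of TAOK1 rests on 113 tags, with a Poisson interval of 93.1 to 136.

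Of the 20 strongest peaks, 7 had an lncRNA as the nearest gene. PPP4R3B-DT, divergent to the phosphatase subunit gene PPP4R3B, had a signal of 39.6, ENSG00000289895 one of 36.2 and ENSG00000291163 one of 35.8. ENSG00000262413 followed with 30.5, ENSG00000288774 with 26.1, ENSG00000231698 with 23.3 and ADD3-AS1 with 22.6. The functions of most of these transcripts are not known. ENSG00000288774 had no input tag under its 129 ChIP tags.

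For 4 of the 20 strongest peaks, another line had a peak at the same gene start although no base was shared. At PPP4R3B-DT the centres of the HCT116, RKO and A549 peaks were 209, 196 and 175 bp away. At ENSG00000262413 they were 191, 244 and 225 bp away. At AFMID, a kynurenine pathway gene whose start faces TK1, the HCT116 peak was 150 bp and the RKO peak 159 bp away, and at CITED2 the HCT116 peak was 368 bp away and RKO had a peak at the start too. Being called in H460 alone therefore described the stretch of DNA at these sites and not the gene. The other 16 of these peaks had no peak of another line at the start.

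**Figure D2:**
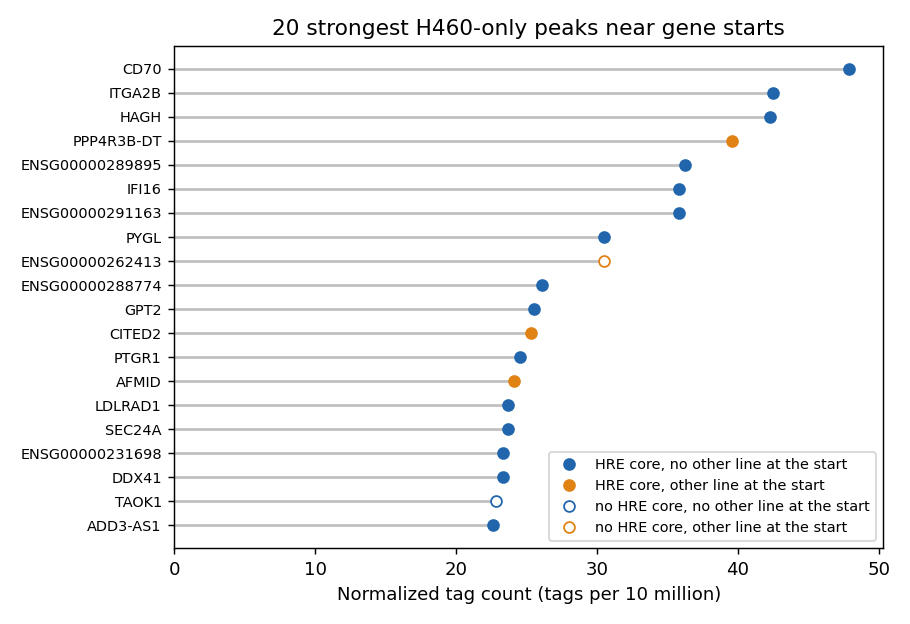
Normalized tag count, in tags per 10 M, of the 20 strongest H460-only peaks near gene starts, named by the nearest gene start; filled points hold an HRE core in the 200 bp around the centre, and orange points have a peak of another line at the same gene start. The signals run from 22.6 to 47.9, 18 of the 20 peaks hold a core and 4 share their gene start with another line.

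The HRE core, not used in the choice of peaks, was the most frequent motif searched, though most others have more than its 5 letters. It was present in the 200 bp around the centre in 828 of 1022 peaks, or 81.0% (95% Wilson interval 78.5 to 83.3). In windows of the same length placed 2000 bp to either side of the same centres it was present in 25.5%, and in windows centred on all 38865 gene starts in 36.6%. A control motif of the same length and composition, ACGAG or GCGAG, was present in 56.3% of the peaks (53.2 to 59.3), in 20.4% of the side windows and in 39.2% of gene starts. All intervals on shares of peaks cover counting error only, and peaks are not replicates of a condition. The median GC content was 65.5% in the peaks and 57.0% at all gene starts, and its part in these shares was not tested.

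The core was gathered at the centre of the peaks, and the control motif much less so. Within 40 bp of the centre there were 23.3 cores per 100 peaks per 20 bp, against 5.80 beyond 300 bp. For the control motif these densities were 9.64 and 7.0. Where a core was present, the median distance from the centre to the nearest core was 18.5 bp, and 49.9% of all the peaks had a core within 25 bp of the centre. Of the nearest cores, 424 of 828 (51.2%, 47.8 to 54.6) read ACGTG or GCGTG on the strand of the nearest gene, so that neither orientation was preferred beyond counting error.

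**Figure D3:**
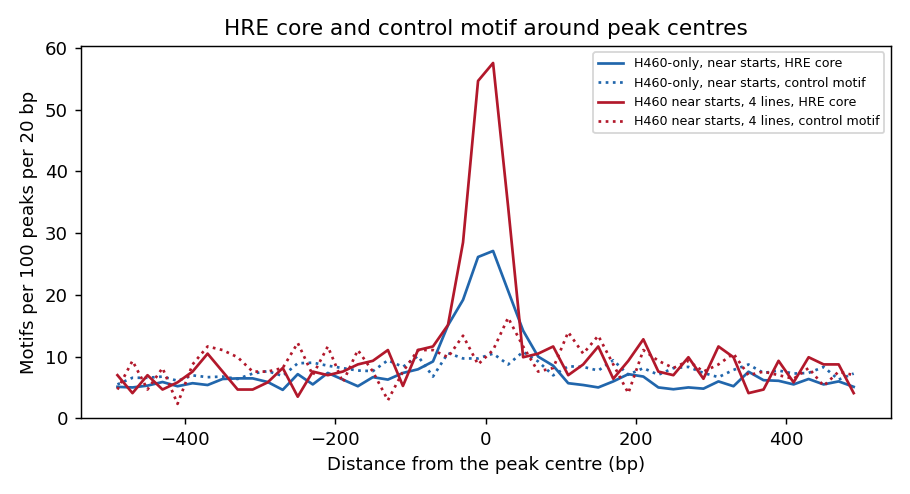
Number of HRE cores (solid) and control motifs (dotted) per 100 peaks per 20 bp, against distance from the peak centre in bp, for H460-only peaks near gene starts (blue) and H460 peaks near gene starts called in all 4 lines (red). The H460-only peaks average 23.3 cores within 40 bp of the centre and 5.80 beyond 300 bp, and the red curve is higher in the middle.

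Stronger peaks held a core more often, while the share with the control motif varied within its intervals. When the peaks were put in 4 equal groups by signal, 70.7%, 75.8%, 83.5% and 94.1% held a core, from the weakest to the strongest group. The Wilson intervals of the weakest and the strongest group, 64.9 to 75.9 and 90.5 to 96.4, did not overlap. The control motif was present in 58.2%, 56.3%, 56.9% and 53.7%. Peaks with more cores had higher medians of the signal. The 194 peaks without a core had a median signal of 4.85, the 380 with 1 core 5.46, the 264 with 2 cores 6.07 and the 184 with 3 or more 6.77.

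The same ordering was seen in peaks near gene starts that were called only in HCT116, only in RKO or only in A549. From the weakest to the strongest group the share with a core went from 55.2% to 86.6% in HCT116, from 40.4% to 80.0% in RKO and from 45.5% to 80.5% in A549. In each of these 4 groups the share was highest in H460. The groups were cut within each line, so they do not match in signal between lines. The strongest HCT116-only group ran from 4.17 to 28.1, while the weakest H460-only group ran from 2.83 to 4.25. At equal signal the lines were not compared.

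**Figure D4:**
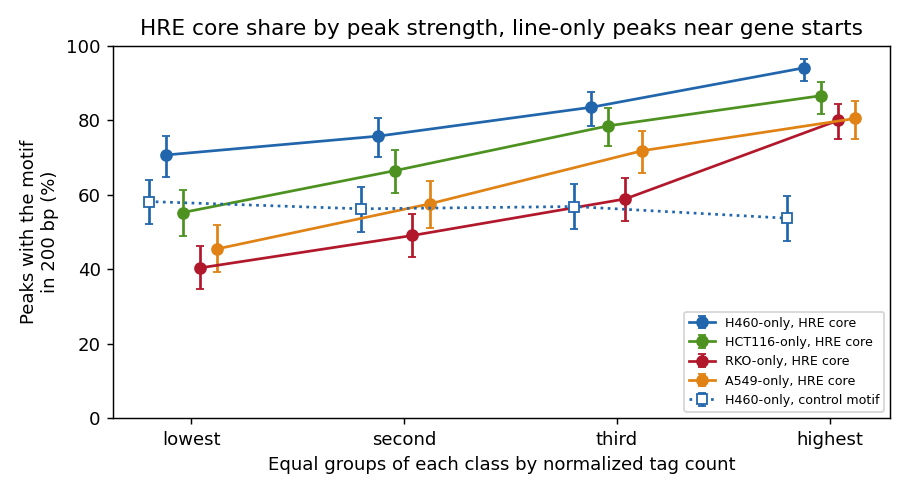
Percent of peaks with an HRE core in the 200 bp around the centre, with 95% Wilson intervals, in 4 equal groups by normalized tag count, for peaks near gene starts called in a single line; open squares give the control motif in the H460-only peaks. The H460-only peaks go from 70.7% to 94.1% for the core and from 58.2% to 53.7% for the control motif. The groups were cut within each line, so their signals differ between lines.

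Compared with other classes of peaks, H460-only peaks near gene starts held the core less often than shared peaks and more often than distant or other line-only peaks. The share was 98.3% in H460 peaks near gene starts called in all 4 lines, a difference of -17.2 points (95% Newcombe interval -20.0 to -13.3). It was 88.8% in those called in 2 or 3 lines, a difference of -7.81 points (-11.1 to -4.41). H460-only peaks far from gene starts held it in 61.5%, which is 19.6 points less (16.1 to 22.9), but for the control motif the difference was larger, 34.4 points (30.6 to 38.0). The distant peaks had a median GC content of 47.0%.

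Against the peaks near gene starts called in another line alone, the share in H460 was higher by 9.30 points for HCT116 (5.60 to 13), by 23.9 for RKO (20.1 to 27.7) and by 17.2 for A549 (13.2 to 21.1). The control motif differed by -4.44 points for HCT116 (-8.73 to -0.14), so that the 2 motifs differed in opposite directions there, and it was higher in H460 by 14.5 points for RKO and by 11.9 for A549. The fold over input that a peak had to exceed was set line by line, at 14 for H460, 13 for A549, 7 for HCT116 and 6 for RKO. The line-only peaks of the other lines were also cut to those with a fold of at least 14, without joining the lists anew. The differences in the core were then 9.07 points for HCT116 (4.01 to 14.4), 21.9 for RKO (16.2 to 27.6) and 15.8 for A549 (11.8 to 19.8). Signal also differed, with medians of 3.07, 3.44 and 4.08 in the HCT116-only, RKO-only and A549-only peaks, and its part in the differences was not tested.

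The first letter of the core differed between H460-only and shared peaks. ACGTG was present in 49.3% of the H460-only peaks near gene starts and GCGTG without ACGTG in 31.7%. In peaks called in all 4 lines these shares were 91.3% and 6.98%, which are differences of -42.0 points (-46.5 to -36.0) and 24.7 points (19.2 to 28.9). Peaks called in 2 or 3 lines lay between, at 64.8% and 24.0%. In the side windows ACGTG was present in 9.25% and GCGTG alone in 16.3%. Within the H460-only peaks the share with ACGTG was 41.8% in the weakest and 63.9% in the strongest group by signal, while that of GCGTG alone was 28.9% and 30.2%.

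Split by the letter before the core, TACGTG showed the widest gap between classes. It was present in 14.8% of the H460-only peaks near gene starts, in 1.66% of the side windows and in 44.8% of the peaks called in all 4 lines. GACGTG was present in 21.8%, 2.84% and 42.4%. The most frequent form in the H460-only peaks was GGCGTG, in 25.3%, but it was also frequent beside them, in 11.8% of the side windows, and was present in 20.3% of the peaks called in all 4 lines. CGCGTG, in 16.8%, was rare in the side windows at 1.81%, but was present in 22.1% of the peaks called in all 4 lines. In windows at all gene starts CGCGTG was present in 7.30%, TACGTG in 2.28%, GACGTG in 5.38% and GGCGTG in 11.9%. Peaks with TACGTG had a median signal of 7.08, the highest among the 8 forms, and the forms overlap because a peak can hold several.

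Other motifs at these peaks were mostly those of GC-rich promoters. The GC box GGGCGG, recognised by SP and KLF factors, was present in 49.3% of the peaks, against 8.90% of the side windows and 33.0% of all gene starts. The palindromic NRF1 site was present in 8.90%, 0.391% and 5.58%, and the short cyclic AMP response element TGACGT in 10.1%, 1.91% and 5.71%. The last of these was about as frequent in H460-only peaks far from gene starts, at 8.52%. Each motif was searched on both strands in 200 bp, and a match is a string of letters and not a bound factor. The cyclic AMP element can overlap an HRE core, which shares the letters ACGT.

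The motifs of AP-1, TEAD and GATA factors were at or below about the frequency seen in the surroundings. The AP-1 site TGANTCA was present in 5.28% of the H460-only peaks near gene starts, in 5.19% of the side windows and in 19.2% of the H460-only peaks far from gene starts. The TEAD motif GGAATG was present in 8.41% near gene starts and 16.4% far from them, and the GATA motif AGATAA in 3.42% and 9.79%. The HRE core was thus 1 of several sequence features that differed between near and distant H460-only peaks.

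Most of the peaks lay very close to a start. The median distance was 239.5 bp, 325 peaks (31.8%) were within 100 bp, 668 (65.4%) within 500 bp and 857 (83.9%) within 1000 bp. In all 522 were downstream and 500 upstream, but the sides differed with distance. Within 200 bp there were 270 upstream and 208 downstream, and between 500 and 1000 bp there were 57 upstream and 133 downstream. Peaks called in all 4 lines were closer, with a median of 110 bp and 79.1% within 500 bp, and RKO-only and A549-only peaks were farther, with medians of 525.5 and 471 bp. The HCT116-only peaks had a median of 180.5 bp.

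**Figure D5:**
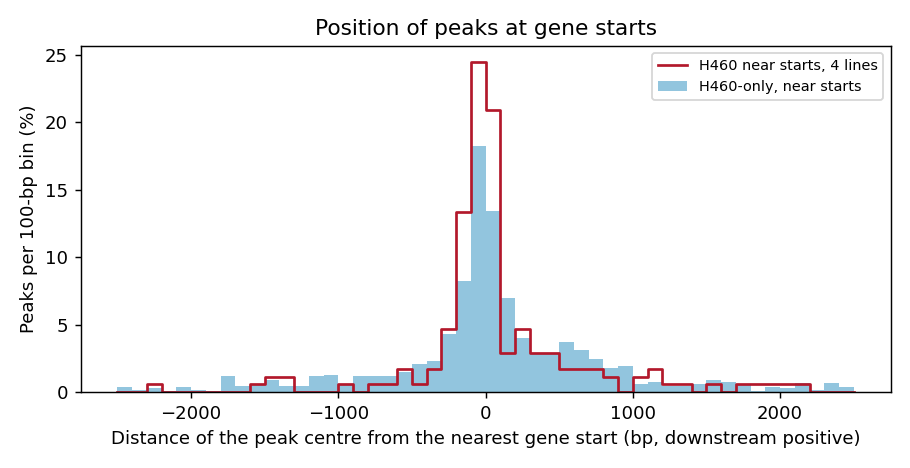
Percent of peaks in each 100-bp bin of distance between the peak centre and the nearest gene start, in bp with downstream positive, for H460-only peaks (bars) and H460 peaks called in all 4 lines (red line). The H460-only peaks gather at the start, with 65.4% within 500 bp, against 79.1% of the peaks called in all 4 lines.

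By the GENCODE annotation, the centre of 241 peaks was in a UTR, of 64 in a coding exon, of 129 in an exon of a noncoding transcript, of 287 in an intron and of 301 between genes. The nearest start was that of an lncRNA for 293 peaks (28.7%), and of a protein-coding gene for the other 729. The core was present in 78.8% of the former (73.8 to 83.1) and 81.9% of the latter (78.9 to 84.5), and the medians of the signal were 5.86 and 5.46. Protein-coding starts were closer, at a median of 195 bp against 401 bp. A pair of genes starting in opposite directions within 1000 bp of each other flanked 172 of the peaks (16.8%, 14.7 to 19.2), against 22.7% (17.1 to 29.5) of the peaks called in all 4 lines.

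The GC content and the control motif fell with distance from the start, and the core did not follow them. From the bin within 100 bp to that of 1000 to 2500 bp the median GC content went from 68.0% to 55.5% and the control motif from 63.4% to 39.4%. The core was present in 79.1% within 100 bp, in 79.0% between 100 and 250 bp, in 89.2% between 250 and 500 bp, in 84.1% up to 1000 bp and in 76.4% beyond. The intervals of neighbouring bins overlapped. The median signal was highest, 6.07, in the farthest bin.

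The 1022 peaks lay within 2500 bp of 1418 gene starts, which is 3.65% of the 38865 starts annotated. Of these, 966 were protein-coding, or 4.79% of that kind, and 452 were lncRNA genes. A peak with 1 start in reach was the usual case, in 630 peaks, and 341 peaks had 2 and 51 had 3 or more, so that a peak and a gene could not always be paired. Of the gene starts, 54 had 2 of the peaks. At 1111 of the starts no other line had a peak, and at the others a peak of another line lay within 2500 bp but outside the H460 peak.

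Seen from the peaks, 221 of 1022 (21.6%, 19.2 to 24.3) had a peak of another line at a gene start they share. The share was 7.78% with a local fold of at least 6 in all lists, 13.6% with peaks joined over gaps of 500 bp and 9.32% without the RKO and A549 lists, whose inputs have conflicting labels. With all lists HCT116 had one for 96 peaks, RKO for 113, A549 for 100, and all 3 lines for 24. The nearest peak of any other line was at a median distance of 29989 bp, but it was within 300 bp for 35 peaks and within 1000 bp for 142 (13.9%). The 3 closest such peaks were 149 bp away at ENSG00000288837, 150 bp at AFMID and 154 bp at ZNF395. For 52 peaks (5.09%), H460 itself also had a peak of a shared region at the same start.

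Genes of the hypoxia response were read from lists, beside the 4.79% of all protein-coding starts that had an H460-only peak. None of the 22 genes of glycolysis and glucose uptake had an H460-only peak at the start, while 14 of them had an H460 hypoxia peak of some kind and 17 a peak of another line. Among 16 genes for HIF subunits and oxygen sensing, 4 had such a peak. CITED2, a protein that competes with HIF1A for CREBBP and EP300, had a signal of 25.3, 1130 bp upstream of its start. At HIF1AN, the asparagine hydroxylase also known as FIH, the signal was 20.8 in a peak 856 bp downstream that lay closer to the starts of NDUFB8 and ENSG00000255339. CREBBP itself had 4.65 at 96 bp upstream, and EGLN2, a prolyl hydroxylase, had 3.64 at 63 bp upstream. No other line had a peak at the starts of HIF1AN and CREBBP, RKO had one at EGLN2, and HCT116 and RKO had one at CITED2.

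Targets of the classical response were represented by 1 or 2 genes a list. Of 24 angiogenic and secreted factors, STC2 had a signal of 8.49 with 5 cores and IGFBP3 one of 5.46. CA12, a membrane carbonic anhydrase, was the only one of 10 genes of pH control, at 3.44, FKBP8 the only one of 20 genes of mitophagy and hypoxic cell death, at 7.48, and P4HA2 the only one of 17 collagen hydroxylase and lysyl oxidase genes, at 6.67. KDM5B, a histone demethylase, was the only one of 36 oxygenases of the JmjC, TET and ALKBH families, at 4.85. Its peak 2185 bp upstream held no core and lay closer to ENSG00000260021, at 157 bp. The P4HA2 peak, 1109 bp downstream, lay closer to SLC22A4, at 188 bp. RPS6KB2, an S6 kinase, was the only one of 38 mTORC1 and PI3K genes, at 5.26. HCT116 and A549 had a separate peak at the start of STC2, and A549 had one at CA12. At the other starts named here no other line had a peak.

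Transcriptional regulators linked to HIF formed another 2 lists. In the MYC, MAX and MXD network 3 of 13 genes had a peak, with signals of 10.1 at MXI1, 4.25 at MXD3 and 3.24 at MLX. Of 22 clock genes and BHLHE repressors, NR1D1, a nuclear receptor that represses clock genes, had 9.91, and BHLHE41 and NPAS2 had 8.29 each. At each of the 3 clock genes, and at MXI1 and MLX, at least 1 other line had a separate peak at the start. The MXI1 peak lay closer to ENSG00000228417, at 97 bp, and the NPAS2 peak to ENSG00000289077, at 407 bp. With the start of ENSG00000228417 counted too, HCT116, RKO and A549 each had a peak at a start in reach of the MXI1 peak.

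In the list of NRF2 targets and antioxidant genes, 4 of 31 genes had an H460-only peak. FTL, the ferritin light chain, had 2 of them, with signals of 8.29 at 38 bp and 7.68 at 2347 bp downstream of the start. PGD, an enzyme of the oxidative pentose phosphate pathway, had 7.68, and KEAP1, the adaptor that marks NRF2 for degradation, had 6.27. These 4 peaks held a core, and RKO was the only other line with a peak at any of these 3 starts, at FTL.

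Among 18 regulators and markers of epithelial and mesenchymal state, 6 had an H460-only peak, 7 had an H460 hypoxia peak of any kind, and 2 had a peak of another line. VIM, the intermediate filament vimentin, had 2 peaks with signals of 9.71 and 3.44, and FN1, fibronectin, had 10.7 at 955 bp upstream. The repressors ZEB2, SNAI1 and SNAI2 had 5.26, 5.26 and 5.86, and ESRP1, an epithelial splicing factor, had 3.44. No other line had a peak at these 6 starts, and the SNAI1 peak held no core. The VIM peaks lay closer to the start of VIM-AS1 and the FN1 peak to that of FN1-DT. The signals rest on 17 to 53 tags each.

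Of 25 genes of lung epithelial identity and neuroendocrine state, NCAM1 had peaks of 5.05 and 3.84, FOXA1 one of 8.69 and NKX2-1 one of 3.84. These were the 3 genes of the list with any H460 hypoxia peak. The FOXA1 peak lay closer to TTC6, the NKX2-1 peak to NKX2-1-AS1 and the weaker NCAM1 peak to ENSG00000247416. TGF-beta receptors and SMADs gave 2 of 25 genes, the co-receptor CD109 with 15.6 and the activin receptor ACVR2A with 6.67. In the list of 51 cell cycle and replication genes ORC1 had 6.67, CCNG2 5.86 and MCM2 5.26. HCT116, RKO and A549 each had a separate peak at the CCNG2 start, and the MCM2 peak lay closer to the start of TPRA1. Each gene of the 15 lists counted once, 35 of 364 (9.62%) had an H460-only peak at the start, beside 4.79% of all protein-coding gene starts. Since the lists were chosen with results of these data known, nothing is drawn from that difference.

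Gene families defined by their symbols gave the following shares, beside 4.79% of all protein-coding gene starts. The families were chosen with results of these data known, so nothing is drawn from the differences. Of 56 genes for translation initiation factors and their relatives 10 had a peak (17.9%, 10.0 to 29.8), among them EIF3D with a signal of 20.2, EIF3A with 11.7 and EIF4H with 10.9. Of 47 genes with symbols of respiratory complex I and its assembly factors 8 had one (17.0%, 8.89 to 30.1). They included NDUFB8 with 20.8, in the peak that also lies near HIF1AN, and NDUFA4L2 with 10.9 at 126 bp downstream. Cytosolic ribosomal proteins gave 8 of 85 genes with signals of 4.04 to 8.29, and mitochondrial ribosomal proteins 4 of 78, with 14.8 at MRPL28. A peak can count in more than 1 family, since RPS28 and NDUFA7 share a peak and so do RPL3L and NDUFB10. Another line had a peak at the start of 15 of the 56 translation genes and 7 of the 47 complex I genes. The same was true of 18 of the 85 cytosolic and 15 of the 78 mitochondrial ribosomal protein genes. Of the genes named here, EIF4H had such a peak from HCT116 and RKO, and NDUFB10 had one from A549.

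The larger families were near the share of all protein-coding genes. Zinc finger genes gave 26 of 509 (5.11%), among them ZNF425 and ZNF398, which share a peak of 21.0, and ZNF395, which had 2 peaks of 12.9 and 12.5. RKO had a separate peak at the starts of ZNF425 and ZNF398, and HCT116 and A549 had one at ZNF395. At 95 of the 509 zinc finger starts another line had a peak. Solute carriers gave 14 of 373 (3.75%), and genes named TMEM 14 of 238 (5.88%). Tripartite motif genes gave 4 of 75, with 15.4 at TRIM33, proteasome genes 3 of 50, RAB genes 3 of 62, kinesins 2 of 39, E2 ubiquitin conjugating enzymes 1 of 36 and small nucleolar RNA host genes 1 of 28. For the host genes the number to set beside is that of lncRNA starts, of which 452 of 18702 had a peak.

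Binding at these sites was seldom called in normoxia. In H460 normoxia, 6 of the 1022 peaks (0.587%, 0.269 to 1.27) overlapped a peak, against 1.16% of all H460 hypoxia peaks and 39 of the 2855 others (1.37%, 1.00 to 1.86). The other lines' normoxia lists overlapped none of them in HCT116, 3 in RKO (at RPS7, SSBP1 and VASP) and 1 in A549 (at LINC01730).

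At the 6 sites called in both conditions the signal was higher in hypoxia. It was 22.4 in hypoxia and 7.51 in normoxia at ENSG00000253252, 17.6 and 5.63 at SCYGR1, and 11.9 and 3.57 at TMEM9. At FTL it was 7.68 and 4.32, at ENSG00000287513 7.68 and 4.88, and at NCAM1 5.05 and 3.0. A binomial test of the tags, exact and two-sided, was run with Benjamini-Hochberg adjustment over the 45 H460 sites called in both conditions. It passed an adjusted p of 0.05 at 4 of the 6 sites, beside 37 of 45 (82.2%) in all. The sites were chosen by calls on the same tags, so that the direction and the passes are a description.

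The adjusted p was 2.0e-06 at TMEM9 with a log2 ratio of 1.74, and 0.0366 at FTL with a log2 ratio of 0.83. It was 0.0923 at ENSG00000287513 and 0.133 at NCAM1, which did not pass. The peaks were 147 bp wide in hypoxia and 119 bp in normoxia. With tags taken per bp in the same test, the adjusted p was 0.242 at FTL, 0.429 at ENSG00000287513 and 0.406 at NCAM1. It was 9.8e-07 at ENSG00000253252, 8.2e-06 at SCYGR1 and 1.7e-04 at TMEM9. These tests compare 2 merged libraries and not the conditions.

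The precision of these sites is limited on the input side. No input tag was present under 531 of the 1022 peaks (52.0%, 48.9 to 55.0), 1 was present under 37.4% of them and 2 under 81. The files hold 0.5 in place of zero there. By the scaling of the columns, at least 24 ChIP tags over 1 input tag give a fold above 14, and 325 of the peaks (31.8%) had fewer tags than that. No input tag was present under 321 of these, and the other 4 had 1 input tag and a listed fold of 14.24. The core was present in 74.8% of the peaks with no input tag, in 85.9% with 1, in 92.6% with 2 and in all 28 with more. The median signal also rose, from 4.25 with no input tag to 6.47 with 1 and 12.5 with 2. A fold above 14 asks for more ChIP tags where the input has more, and the parts of signal and input were not tested.

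The share without an input tag was 58.1% in H460-only peaks far from gene starts and 11.0% in peaks near gene starts called in all 4 lines. It was 28.3% in HCT116-only, 21.5% in RKO-only and 27.5% in A549-only peaks near gene starts, and 77.8%, 68.7% and 30.6% among those with a fold of at least 14. The H460 input was estimated at 29.4 M tags from the scaling of the columns.

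At the limits of the choice, values differed little on either side. The 3 peaks just inside 2500 bp, near ENSG00000288695, FANK1-AS1 and LINC01973, were 2448, 2445 and 2438 bp from the start and had signals of 4.65, 3.44 and 5.66. The 3 just outside, at 2506, 2522 and 2550 bp, had 4.65, 5.05 and 5.05. The lowest fold over input among the 1022 peaks was 14.24. It was listed for 39 peaks with 22 to 95 ChIP tags, among them those at PKN2, RAB13 and ENSG00000260021 with 24 tags over 1 input tag each. The peak at ENSG00000260021 is the one also given for KDM5B.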

How the data were processed

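HIF1A ChIP-seq libraries and inputs of 4 lines were used as deposited peak lists. The authors aligned reads to GRCh37 (hg19) with Bowtie2 version 2.2.9, filtered them by mapping quality, marked duplicates with Picard and merged the replicates. They then called peaks with HOMER version 4.3, giving 8 lists. Per the file headers, a peak had to pass the fold over input of its line, a fold of 3 over the surrounding 10000 bp and a false discovery rate of 0.001. The normalized tag count, a signal deposited by the authors, is scaled to 10 M tags (1 M is 1000000). Deposited tag counts of ChIP and input are scaled to the smaller library, the deposited fold change ratio is their quotient. The caller's p-values, focus ratio and scores were not used.

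Here, whole tags were recomputed from the signal and the header total, and in each of the 8 lists they added up to the total of the header. Peaks were joined at 1 bp of overlap and assigned to gene records of GENCODE release 44 lifted to GRCh37, without the mitochondrial genome. Motifs were counted in 200 bp of the GRCh37 sequence around each centre. Shares have 95% Wilson intervals and differences Newcombe intervals, and tags in both H460 conditions were compared by an exact binomial test (Python 3.11.15, SciPy 1.17.1, pysam 0.24.0). Scripts were tested on simulated data. Only counting error enters the intervals, because the lists are merged. The members, the 15 gene lists and the 13 symbol families were chosen with earlier results of these data known. Genes are named by a rule: the nearest genes of the 20 strongest peaks, the 5 strongest with an lncRNA, the genes of the 15 lists, peaks also called in H460 normoxia, and the 3 peaks nearest to each limit. Family members, the overlaps with the normoxia lists of other lines and the closest peaks of other lines were named after their values were seen. The same holds for genes named because they start closer to the peak of a listed gene. A gene of the lists is not reported here.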

Additional observations from a re-analysis of the deposited data

How the results depend on the processing

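No paired analysis was possible because the authors merged replicates 1 and 2 before calling peaks. The number of H460-only peaks near gene starts stayed between 692 and 1341 in 12 of 13 alternatives and was 643 with a signal of at least 5, when 913 gene starts had a peak. The other 12 alternatives kept the number of gene starts within 1.5 times. The peaks were not always the same ones. A local fold of at least 6 in all lists gave 835 peaks, of which 686 were among the 1022. The share with an HRE core was 86.8% with a local fold of at least 6 in all lists, 86.2% with a signal of at least 5, 78.3% with every transcript start, 69.1% in a window of 100 bp and 76.9% in the peak as deposited. The median signal was 6.67 with the local fold of 6, 7.08 with the signal of at least 5, 5.86 without the HCT116 list and 6.07 without the RKO and A549 lists (added once the data had been seen). The share of peaks whose gene start had a peak of another line was the value that moved most. It was 7.78% with the local fold of 6, 13.6% with peaks joined over gaps of 500 bp, 25.2% with joining at 50% of the shorter peak, 15.6% within 1000 bp, 17.6%, 14.8% and 16.3% without the HCT116, RKO or A549 list, and 9.32% without both RKO and A549. By construction, fewer lists or fewer peaks in them leave fewer starts with another line, and for the core and the signal the cause was not tested. The share called in H460 normoxia moved beyond its interval in none of 13 alternatives. Genes of the lists with a peak were 47 with every transcript start, against 35. Between 14 and 20 of the 20 strongest peaks were kept in each alternative. Another addition chosen after seeing the data cut the line-only peaks to a fold of at least 14 and left the classes as they were. The shares with a core were then 71.9% in HCT116-only, 59.1% in RKO-only and 65.2% in A549-only peaks. Of the tests at the 45 H460 sites, 37 passed with tags per library and 31 with tags per bp. Depth limits the weakest peaks, which rest on 14 tags, and peaks with no input tag, for which the fold has no measured denominator.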
